A study of Homo sapiens with 15 samples.

Results

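The genes described here are 9 members of the pericellular protease system, the enzymes and inhibitors that remodel the matrix around a cell. They are the metalloproteases MMP1, MMP14 and MMP24, the protease inhibitors TIMP1, TIMP2 and TFPI2, and the plasminogen activation genes PLAU, PLAUR and PLAT. They were chosen by name, with earlier results of these data known. Counts and medians set beside those of all loci are therefore a description and not a test of the set. Their rows were found by Ensembl identifier among the 61248 loci of the expression table. All 9 genes passed the filter on low values, which asked for 1 FPKM or more in 3 or more libraries and left 14999 loci for testing. FPKM is a level, the fragments of a gene scaled by its length and by the depth of the library.

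The RNA came from NCI-H1975 cells, a non-small cell lung cancer line that carries mutated EGFR. The 15 libraries fall into 5 groups of 3: cells given almonertinib, an inhibitor of the EGFR kinase; cells given EGF, a ligand of EGFR; a control; cells with an siRNA against EGFR, labelled siEGFR; and cells with a control siRNA, labelled siNC. The design asks how gene expression differs when EGFR is inhibited, stimulated or knocked down. The labels give no dose, time or vehicle, and do not say whether replicates were separate cultures, so the p-values reflect library-to-library spread that could be purely technical. In bulk RNA, fewer cells of one kind and less RNA per cell cannot be told apart.

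Read totals, recovered from the steps of the FPKM values, lay between 18009882 and 34908207 per library, and for a gene of 1 kb a single read was worth 0.0286 to 0.0555 FPKM. Control 1, almonertinib 3 and EGF 2 stood apart from their replicates. EGFR itself was at 29.9, 28.6 and 28.9 FPKM in the siEGFR libraries, against 49.4, 49.4 and 49.8 FPKM in the siNC libraries. It fell by 0.75 on the log2 scale in siEGFR cells (adjusted p = 0.00165). With almonertinib EGFR also fell, averaging 16.7 FPKM against 24.4 FPKM in control cells (log2 change −0.52, adjusted p = 0.00521). In siNC cells it averaged 49.6 FPKM, higher than in control cells (log2 change 1.00, adjusted p = 4.9e-06). The siEGFR mean of 29.1 FPKM therefore still lay above the control mean. All 5 epithelial markers passed the filter, with KRT8 at 188 to 280 FPKM, EPCAM at 4.45 to 36.3 FPKM and CDH1 at 1.98 to 16.9 FPKM over the libraries. The alveolar factor NKX2-1 was at 2.62 to 15.7 FPKM.

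The 9 genes belong to 2 linked cascades. Plasminogen activators convert plasminogen to the broad protease plasmin. PLAU, the urokinase-type activator, acts at the cell surface when bound to its receptor PLAUR, and PLAT is the tissue-type activator. Plasmin in turn can activate secreted metalloprotease precursors such as that of MMP1, a collagenase of fibrillar collagen. MMP14 is anchored in the membrane, cuts collagen at the cell edge and activates the precursor of MMP2 in a complex that includes TIMP2. MMP24 is another membrane-type metalloprotease, best known from the nervous system. TIMP1 and TIMP2 inhibit metalloproteases, and TFPI2 is a secreted Kunitz-type inhibitor of plasmin and other serine proteases. In epithelial tumour cells, several of these genes are known targets of the EGFR, ERK and AP-1 pathway.

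RefSeq promoter windows, the 250 bases before an annotated gene start on GRCh38.p14, were matched by symbol for 6 of the 9 genes (7 windows, since PLAU has a pair), while MMP1, TIMP2 and PLAT were not matched. The windows of TFPI2 and PLAUR are shown because, among the 7, these are the ones that hold the AP-1 motif TGANTCA, whose match is in capitals. The TFPI2 window lies at chr7:93890754-93891003 and the PLAUR window at chr19:43670170-43670419, both on the minus strand and both written 5′ to 3′ on that strand.
TFPI2: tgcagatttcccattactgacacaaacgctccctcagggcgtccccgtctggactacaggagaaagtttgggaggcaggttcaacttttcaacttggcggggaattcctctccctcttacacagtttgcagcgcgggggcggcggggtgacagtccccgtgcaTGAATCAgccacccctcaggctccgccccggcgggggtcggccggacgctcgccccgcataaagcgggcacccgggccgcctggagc
PLAUR: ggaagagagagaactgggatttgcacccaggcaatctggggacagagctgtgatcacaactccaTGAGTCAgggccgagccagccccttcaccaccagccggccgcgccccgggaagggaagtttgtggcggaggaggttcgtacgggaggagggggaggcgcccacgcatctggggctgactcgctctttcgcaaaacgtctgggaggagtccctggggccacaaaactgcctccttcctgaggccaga
The match lies 87 to 81 bases before the start of TFPI2 and 186 to 180 bases before that of PLAUR. Both strands were searched, and 6.57% of all 35116 windows hold the motif. The ETS motif CCGGAA, in 14.5% of all windows, and the TATA motif TATAAA, in 10.7%, were in 0 of the 7 windows, so no match overlaps another. A match is a string of letters and not a site of binding, and its absence says only that these letters are not in the window.

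Across the set, EGF moved every one of the 9 genes, and the direction differed by gene. In EGF cells 7 genes rose and 2 fell relative to control cells, where 49.3% of all loci tested changed (22.0% up, 27.3% down), and all 9 still passed with any 1 EGF or control library left out. In almonertinib cells 0 rose and 6 fell relative to control cells, against 30.1% of all loci changed (12.1% up, 18.0% down). In siEGFR cells 2 rose and 4 fell relative to siNC cells, against 5.46% of all loci changed (2.27% up, 3.19% down). The median log2 change of the 9 genes was 0.62 under EGF, −0.38 under almonertinib and −0.27 under siEGFR, beside −0.04, −0.06 and 0.01 for all loci tested in the same 3 comparisons. The libraries of the 2 groups did not overlap for 9 of the 9 genes under EGF (51.1% of all loci), for 5 under almonertinib (35.2% of all loci) and for 7 under siEGFR (40.5% of all loci). Of all loci called under almonertinib 40.2% were higher, a share that TPM scaling put at 22.0% and median-ratio scaling at 53.5%, and the 6 falls among the 9 genes held under both. Every call rests on limma with Benjamini-Hochberg adjustment over all loci tested, with a threshold of 0.05 on the adjusted p, and changes are on the log2(FPKM + 1) scale, which understates the change of low genes. The almonertinib and EGF comparisons share the 3 control libraries.

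**Figure D1:**
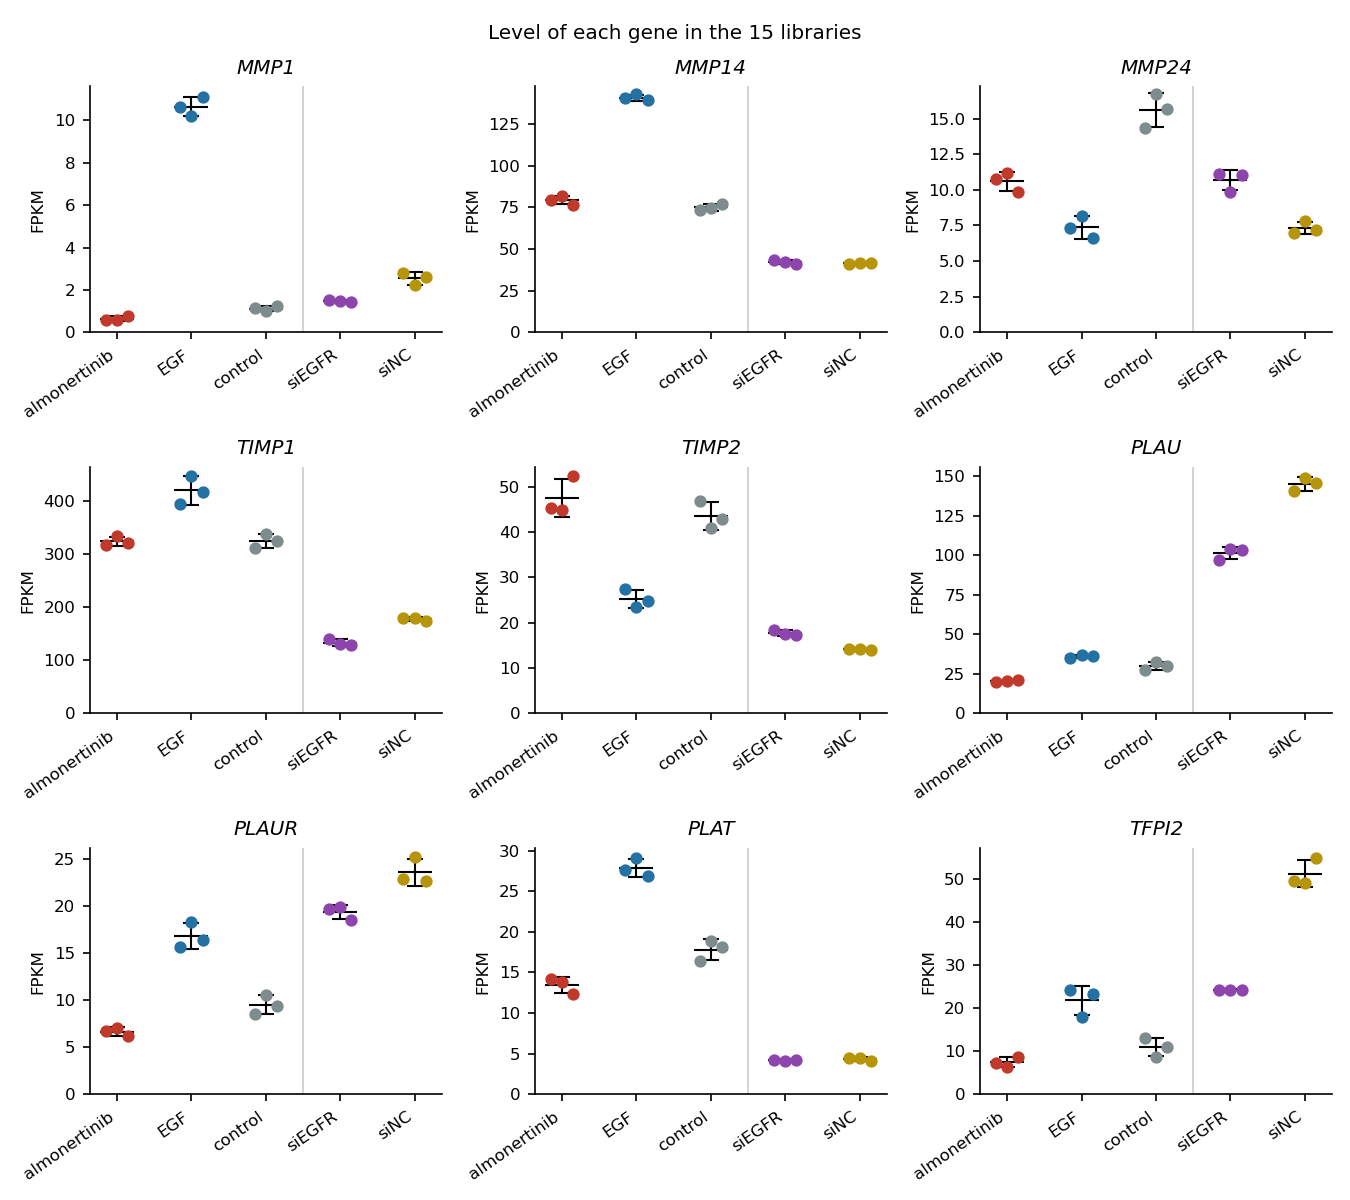
Level of each of the 9 genes in FPKM (vertical axis, starting at 0) in the 15 libraries, by group. Points are libraries, the long bar is the group mean and the short bars 1 SD (n = 3); the grey line separates the libraries without siRNA from those with siRNA. MMP1 stands at 10.2 to 11.1 FPKM in the EGF libraries and under 3 FPKM in the others, while PLAU, PLAUR and TFPI2 are highest in siNC cells.

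MMP1 (ENSG00000196611) was the member with the largest response to EGF. It was at 10.6, 10.2 and 11.1 FPKM in the EGF libraries, against 1.13, 0.999 and 1.24 FPKM in the control libraries. The EGF libraries lay far above the control libraries, a 9.52-fold ratio of means and a log2 change of 2.46 ± 0.07 (SE, adjusted p = 9.18e-11). In almonertinib cells it was at 0.580, 0.592 and 0.762 FPKM, all below the 3 control libraries, with a mean 57.6% of control. These almonertinib values rest on 32 to 42 reads per library. The log2 change was −0.37 ± 0.07 (SE, adjusted p = 0.00281), and it was not past the threshold when the almonertinib and control libraries alone were fitted (adjusted p = 0.0779).

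MMP1 was also lower after EGFR knockdown. It was at 1.503, 1.49 and 1.45 FPKM in siEGFR cells, against 2.80, 2.21 and 2.63 FPKM in siNC cells, with no overlap. The siEGFR mean was 58.2% of the siNC mean (log2 change −0.51 ± 0.07 SE, adjusted p = 0.00101). This share is close to the 57.6% seen with almonertinib, and the 2 effects differed by 0.14 on the log2 scale (95% interval −0.08 to 0.37, adjusted p = 0.363). Because MMP1 is low, the size of its change depends on the scale. Over 16 alternatives the almonertinib effect ran between −0.80, on recovered reads, and −0.33, and the siEGFR effect between −0.77 and −0.46.

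MMP14 (ENSG00000157227), the membrane-anchored collagenase, was the most abundant of the 3 metalloproteases per length and rose with EGF. It was at 140, 143 and 139 FPKM in the EGF libraries, against 73.1, 74.5 and 77.1 FPKM in the control libraries. The groups lay far apart, with a 1.88-fold ratio of means (log2 change 0.90 ± 0.04 SE, adjusted p = 3.84e-09). The almonertinib libraries, at 79.4, 81.9 and 76.5 FPKM, overlapped the control libraries (log2 change 0.08, 95% interval −0.01 to 0.17, adjusted p = 0.169). The siEGFR libraries, at 43.6, 41.9 and 41.0 FPKM, overlapped the siNC libraries at 40.9, 41.5 and 41.4 FPKM. Their difference was 0.03 on the log2 scale (95% interval −0.06 to 0.12, adjusted p = 0.836).

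MMP24 (ENSG00000125966), the other membrane-type enzyme, was lower in both almonertinib and EGF cells than in control cells. It was at 10.7, 11.2 and 9.86 FPKM with almonertinib and at 7.32, 8.15 and 6.60 FPKM with EGF, against 14.3, 16.7 and 15.7 FPKM in the control. All 6 treated libraries lay below the 3 control libraries, and the EGF libraries lay below those with almonertinib. The log2 change was −0.52 ± 0.08 with almonertinib (SE, adjusted p = 0.000576) and −0.99 ± 0.08 with EGF (SE, adjusted p = 4.88e-07). In siEGFR cells it was higher instead, at 11.1, 9.85 and 11.0 FPKM, against 6.97, 7.78 and 7.15 FPKM in siNC cells. The siEGFR libraries lay above every siNC library (log2 change 0.49 ± 0.08 SE, adjusted p = 0.00275).

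By GENCODE v29 the gene MMP24OS on the opposite strand shares 799 of the 4414 exon bases of MMP24. Whether the libraries keep strand is not stated, so reads of the shared bases cannot be told apart. A further locus on that strand shares 162 bases and was at most 3.53 FPKM. MMP24OS averaged 6.66 FPKM with almonertinib, 4.50 FPKM with EGF and 6.20 FPKM in the control, and 4.77 FPKM in siEGFR cells against 4.19 FPKM in siNC cells. It fell with EGF by 0.39 on the log2 scale (adjusted p = 0.000264), while its changes of 0.09 with almonertinib and 0.15 with siEGFR did not pass (adjusted p = 0.313 and 0.242). MMP24OS also moved the way MMP24 did in 3 other comparisons: it was higher with almonertinib than with EGF by 0.48 (adjusted p = 2.79e-05), lower in siNC than in control cells by 0.47 (adjusted p = 2.68e-05), and lower in the EGF minus siEGFR effect, at −0.54 (adjusted p = 0.000456). Its part in the MMP24 values was not tested. For the other 8 genes, the overlapping genes were at most 3.33 FPKM, the level of GNGT1, which shares 44 of the 2682 exon bases of TFPI2. C10orf55, which shares 916 of the 2950 exon bases of PLAU, was at most 0.642 FPKM.

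TIMP1 (ENSG00000102265), the broad secreted inhibitor, was the most abundant of the 9 genes per length in all 5 groups. It was at 395, 448 and 418 FPKM in the EGF libraries, against 312, 338 and 324 FPKM in the control libraries. The EGF libraries lay above every control library (log2 change 0.37 ± 0.06 SE, adjusted p = 0.000148). With almonertinib it averaged 324.2 ± 8.94 FPKM, against 324.5 ± 12.8 FPKM in the control (SD, n = 3 each), and the log2 change was −0.00 (95% interval −0.13 to 0.12, adjusted p = 0.992). In siEGFR cells TIMP1 fell to 141, 130 and 128 FPKM, against 180, 180 and 174 FPKM in siNC cells. The siEGFR libraries were all lower (log2 change −0.42 ± 0.06 SE, adjusted p = 0.000802).

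TIMP2 (ENSG00000035862), which inhibits metalloproteases and takes part in the MMP14 complex, fell with EGF. It was at 27.4, 23.4 and 24.9 FPKM in the EGF libraries, against 46.9, 40.9 and 42.8 FPKM in the control libraries. The EGF mean was 58.0% of the control mean (log2 change −0.76 ± 0.07 SE, adjusted p = 1.97e-06). The almonertinib libraries, at 45.4, 44.9 and 52.4 FPKM, overlapped the control libraries. Their log2 change of 0.12 did not pass (adjusted p = 0.206), though it was 0.22 and passed after median-ratio scaling (adjusted p = 0.00853).

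TIMP2 was higher in siEGFR cells, at 18.4, 17.4 and 17.3 FPKM, against 14.2, 14.1 and 13.9 FPKM in siNC cells. The groups did not overlap, and the log2 change was 0.31 ± 0.07 (SE, adjusted p = 0.0245). The call was lost when any 1 of these 6 libraries was left out (adjusted p = 0.0676 to 0.101) and with no filter (0.0547), while the change stayed between 0.28 and 0.33 over all alternatives. In the same libraries the summed level of 7 fibroblast markers was 359 to 383 FPKM with almonertinib, 193 to 214 FPKM with EGF and 337 to 353 FPKM in the control, and 194 to 196 FPKM in siEGFR against 138 to 146 FPKM in siNC cells. Of these markers 3 passed the filter and COL1A2 gave most of the sum, at 128 to 361 FPKM. The others that passed were COL1A1, at 3.67 to 14.5 FPKM, and PDGFRB, at 1.26 to 11.9 FPKM. COL3A1 was at most 0.272 FPKM. DCN, LUM and PDGFRA were at or near 0, with at most 0.0717 FPKM in any library.

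TFPI2 (ENSG00000105825), the plasmin inhibitor, had the largest drop of the 9 genes after EGFR knockdown. It was at 24.2, 24.3 and 24.4 FPKM in siEGFR cells, against 49.7, 49.2 and 54.9 FPKM in siNC cells. The siEGFR mean was 47.4% of the siNC mean (log2 change −1.05 ± 0.14 SE, adjusted p = 0.00052). With EGF it rose to 24.1, 18.0 and 23.3 FPKM, against 13.0, 8.76 and 11.0 FPKM in the control (log2 change 0.94 ± 0.14 SE, adjusted p = 8.03e-05). In almonertinib cells it was at 7.31, 6.43 and 8.77 FPKM, and the highest of these libraries overlapped the lowest control library. The log2 change was −0.48 ± 0.14 (SE, adjusted p = 0.0190). That call was lost without almonertinib 2 (adjusted p = 0.0855), without control 1 (0.0836), in the fit of these 6 libraries alone (0.121) and with no filter on low values (0.0574).

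PLAU (ENSG00000122861), the urokinase-type activator, was lower both with the EGFR inhibitor and with the knockdown. It was at 19.9, 20.2 and 20.8 FPKM in the almonertinib libraries, against 27.5, 32.6 and 30.1 FPKM in the control libraries. The almonertinib mean was 67.4% of the control mean (log2 change −0.54 ± 0.06 SE, adjusted p = 3.3e-05). In siEGFR cells it was at 97.3, 104 and 103 FPKM, against 140, 149 and 146 FPKM in siNC cells, a mean of 69.9% (log2 change −0.51 ± 0.06 SE, adjusted p = 0.000157). The groups did not overlap in either comparison, and the 2 effects differed by −0.03 on the log2 scale (95% interval −0.21 to 0.15, adjusted p = 0.825). With EGF it was at 35.2, 37.0 and 36.1 FPKM, above each control library, the smallest increase of the 7 genes that rose (log2 change 0.26 ± 0.06 SE, adjusted p = 0.00225).

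PLAUR (ENSG00000011422), the urokinase receptor, was at 6.67, 7.07 and 6.16 FPKM with almonertinib and at 15.6, 18.3 and 16.4 FPKM with EGF, against 8.52, 10.5 and 9.38 FPKM in the control. The almonertinib libraries were all below and the EGF libraries all above the control libraries. Almonertinib gave a log2 change of −0.45 ± 0.08 (SE, adjusted p = 0.00123), and EGF one of 0.76 ± 0.08 (SE, adjusted p = 4.46e-06). In siEGFR cells it was at 19.7, 19.8 and 18.5 FPKM, against 22.8, 25.2 and 22.6 FPKM in siNC cells. These groups did not overlap, but the log2 change of −0.27 ± 0.08 did not pass the threshold (SE, adjusted p = 0.0724). It passed in the fit of these 6 libraries alone (adjusted p = 0.0102) and without control 1 and almonertinib 3 (adjusted p = 0.0247).

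PLAT (ENSG00000104368), the tissue-type activator, fell with almonertinib and rose with EGF, while its siEGFR and siNC libraries overlapped. It was at 14.2, 13.8 and 12.3 FPKM with almonertinib and at 27.6, 29.1 and 26.8 FPKM with EGF, against 16.4, 18.9 and 18.1 FPKM in the control. Neither of these treatments overlapped the control. The log2 change was −0.38 ± 0.07 with almonertinib (SE, adjusted p = 0.00113; 0.0629 in the fit of those 6 libraries alone) and 0.62 ± 0.07 with EGF (SE, adjusted p = 5.32e-06). The siEGFR libraries, at 4.28, 4.07 and 4.23 FPKM, overlapped the siNC libraries at 4.49, 4.48 and 4.07 FPKM. Their log2 difference was −0.04 (95% interval −0.19 to 0.10, adjusted p = 0.858).

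**Figure D2:**
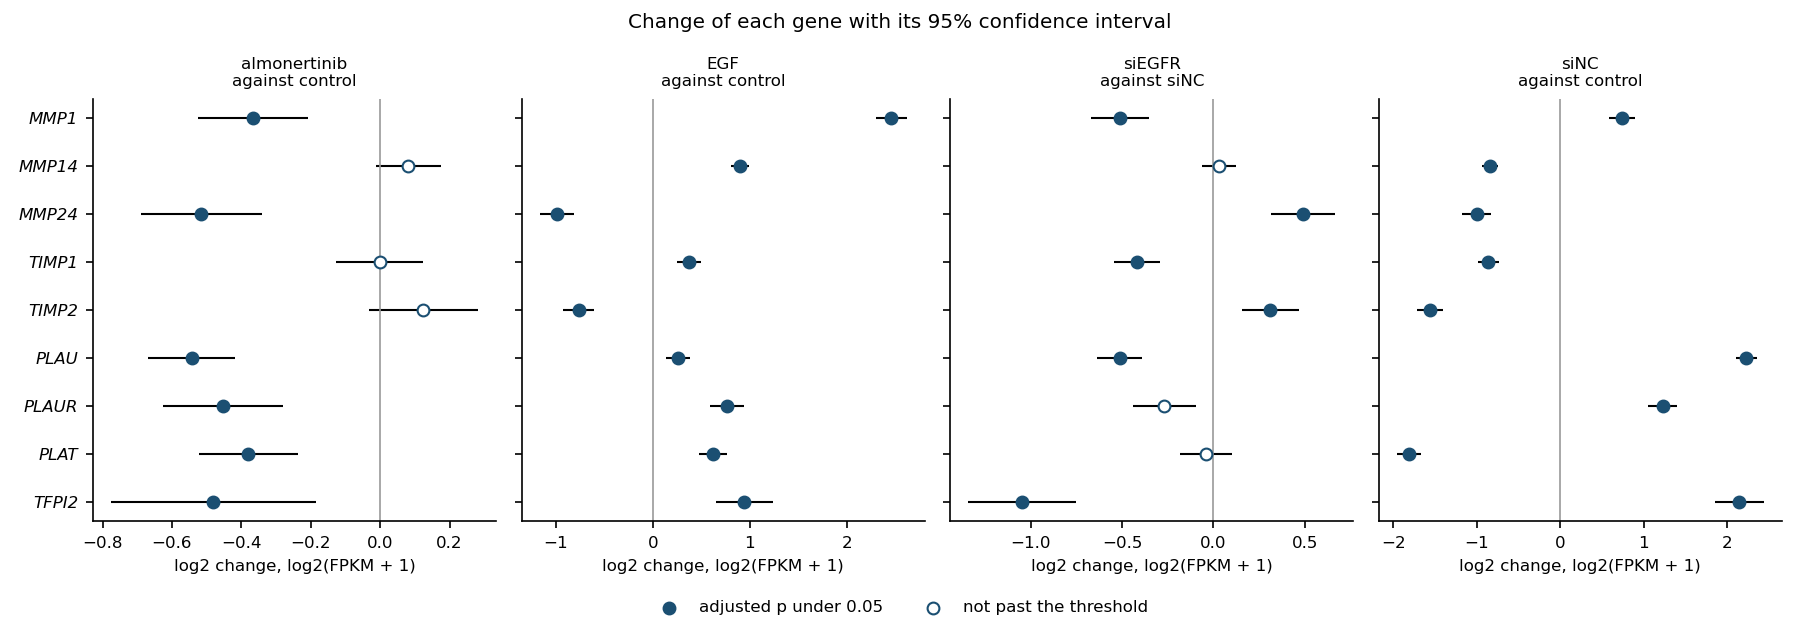
Log2 change (horizontal axis, log2(FPKM + 1) scale) of each of the 9 genes in 4 comparisons, with 95% confidence intervals as lines; filled points passed the threshold of 0.05 on the adjusted p and open points did not. The axes differ between panels. Under EGF the points run between −0.99 for MMP24 and 2.46 for MMP1, while under almonertinib the 6 filled points lie between −0.54 and −0.37.

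Almonertinib against EGF, the inhibitor against the ligand, separated all 9 genes: 2 were higher in almonertinib cells and 7 lower, where 62.6% of all loci tested differed (30.0% higher, 32.6% lower). The libraries did not overlap for any of the 9, as for 61.7% of all loci. MMP24 and TIMP2 were the 2 higher genes, by 0.47 and 0.89 on the log2 scale (adjusted p = 0.000194 and 2.26e-07). MMP1 was the lowest, at 6.05% of its EGF level (log2 change −2.83 ± 0.07 SE, adjusted p = 6.44e-12). TIMP1 differed least among the 7, with a mean 77.1% of that in EGF cells (log2 change −0.37 ± 0.06 SE, adjusted p = 9.02e-05).

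The siNC cells differed from the control cells at every one of the 9 genes: 4 were higher and 5 lower in siNC cells, where 66.0% of all loci tested differed (34.4% higher, 31.6% lower) and 68.8% did not overlap. PLAU, TFPI2, PLAUR and MMP1 were higher, MMP1 by 0.74 on the log2 scale (0.69 to 1.18 over 16 alternatives, the highest on recovered reads). PLAU averaged 145 ± 4.34 FPKM in siNC cells and 30.1 ± 2.52 FPKM in control cells (SD, n = 3 each), a 4.82-fold ratio (log2 change 2.23 ± 0.06 SE, adjusted p = 7.25e-12). PLAT was lowest relative to control, at 24.4% of it (log2 change −1.81 ± 0.07 SE, adjusted p = 9.25e-11). TIMP2, MMP24, TIMP1 and MMP14 were at 32.4%, 46.8%, 54.9% and 55.1% of their control means. Transfection, culture and any other difference between these groups cannot be told apart, so the effect of siEGFR was tested against siNC. CD14, the one of 5 leukocyte markers past the filter, followed the same split, and the summed level of those markers was 3.08 to 4.17 FPKM in siEGFR, 6.75 to 7.31 FPKM in siNC and 30.3 to 41.0 FPKM in the other libraries. PTPRC, the general leukocyte marker, was at most 0.0620 FPKM. The summed level of 6 alveolar markers, 5 of them past the filter, was 13.6 to 14.2 FPKM in siEGFR and 25.1 to 27.0 FPKM in siNC cells, and 7.59 to 8.03 FPKM with almonertinib, 4.15 to 4.62 FPKM with EGF and 6.91 to 7.50 FPKM in the control. For 4 endothelial markers, 2 of them past the filter, it was 0.590 to 0.656 FPKM in siEGFR and 0.664 to 0.776 FPKM in siNC cells, and 2.64 to 3.12 FPKM with almonertinib, 1.80 to 2.19 FPKM with EGF and 3.18 to 3.80 FPKM in the control. The part of these marker shifts in the siNC and siEGFR changes was not tested.

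Ranked by level, as a description with no test, the 5 groups fell into a different order for different genes. EGF cells had the highest MMP1, MMP14, TIMP1 and PLAT. In siNC cells PLAU, PLAUR and TFPI2 were highest, in control cells MMP24 and in almonertinib cells TIMP2. Neighbouring groups overlapped for MMP14 (almonertinib with control, siEGFR with siNC), MMP24 (siEGFR with almonertinib, EGF with siNC), TIMP1 (almonertinib with control), TIMP2 (almonertinib with control), PLAT (siEGFR with siNC) and TFPI2 (almonertinib with control), and not elsewhere. Some gaps between neighbours were narrow. PLAUR averaged 19.3 FPKM in siEGFR and 16.8 FPKM in EGF cells, with the lowest siEGFR library at 18.5 FPKM and the highest EGF library at 18.3 FPKM. TFPI2 averaged 24.29 FPKM in siEGFR and 21.83 FPKM in EGF cells, with the same edges at 24.19 and 24.15 FPKM.

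The effect of the inhibitor was set against that of the knockdown for each gene as a difference of the 2 log2 changes. The references of the 2 effects, control and siNC cells, differ in their EGFR level. Of the 9 genes, 1 had a higher and 2 a lower change under almonertinib than under siEGFR, where 13.7% of all loci tested differed (5.95% higher, 7.71% lower). MMP24 differed most, by −1.01 ± 0.11 (SE, adjusted p = 0.000159), since it fell with almonertinib and rose with siEGFR. TIMP1 differed by 0.42 ± 0.08 (SE, adjusted p = 0.00518), since it fell with siEGFR and had a log2 change of −0.00 with almonertinib. PLAT differed by −0.34 ± 0.09 (SE, adjusted p = 0.0306), and this call was lost in 9 of 22 alternatives, among them the fits without control 3 and without any 1 of the siEGFR and siNC libraries (adjusted p = 0.0502 to 0.0775), with no filter (0.0760) and with median-ratio scaling (0.252).

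For the other 6 genes the difference between inhibitor and knockdown did not pass. TFPI2 came nearest, with a change 0.56 higher under almonertinib (95% interval 0.15 to 0.98, adjusted p = 0.0696), which passed in 4 of 22 alternatives: without control 1 (adjusted p = 0.0286), without control 1 and almonertinib 3 (0.0346), with median-ratio scaling (0.0116) and with the replicate block (0.0213). The intervals were −0.08 to 0.18 for MMP14, −0.41 to 0.04 for TIMP2 and −0.43 to 0.06 for PLAUR. Against the ligand, every gene differed: the EGF effect was higher than the siEGFR effect for 7 genes and lower for MMP24 and TIMP2, where 38.3% of all loci tested differed (17.0% higher, 21.3% lower). MMP1 had the largest such difference at 2.97 ± 0.10 and PLAT the smallest at 0.66 ± 0.09 (SE, adjusted p = 1.14e-09 and 0.000106).

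**Figure D3:**
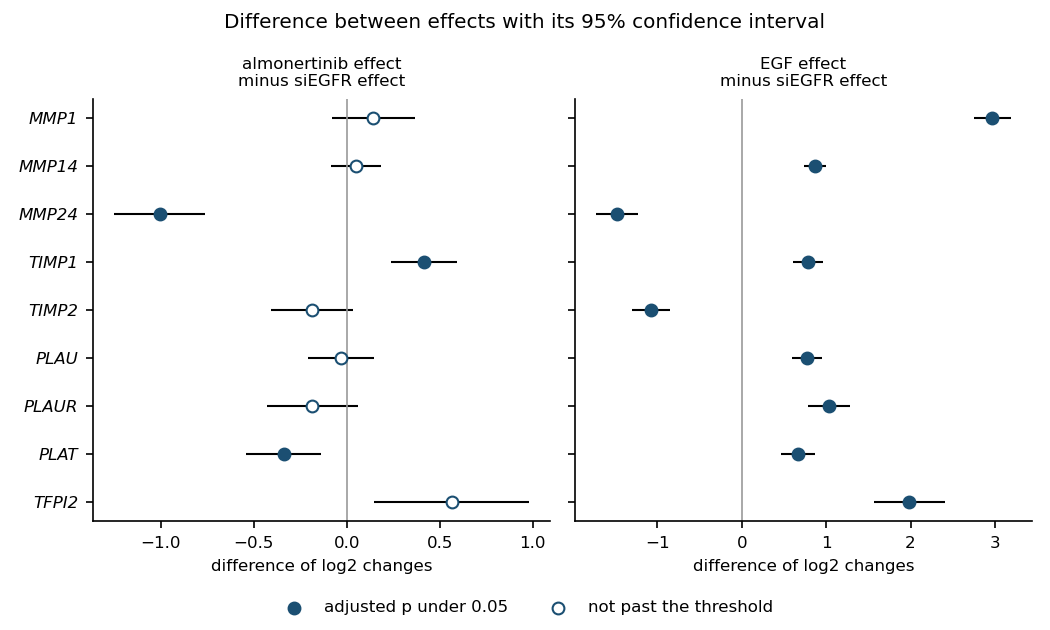
Difference between 2 log2 changes (horizontal axis) for each of the 9 genes, with 95% confidence intervals as lines: the almonertinib effect minus the siEGFR effect on the left and the EGF effect minus the siEGFR effect on the right. Filled points passed the threshold of 0.05 on the adjusted p. On the left MMP24 stands at −1.01 and 6 points are open, and on the right all 9 are filled.

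Among the other metalloproteases, 13 of the 23 genes listed did not reach the filter, among them the gelatinases MMP2 and MMP9, which were at most 0.414 and 0.690 FPKM in any library. Of the 10 tested, MMP1, MMP14 and MMP24 included, 2 rose and 3 fell with almonertinib, 3 rose and 5 fell with EGF, and 1 rose and 3 fell with siEGFR. The medians were 0.02, −0.36 and −0.09 on the log2 scale. Of all loci tested 12.1% rose and 18.0% fell with almonertinib, 22.0% and 27.3% with EGF, and 2.27% and 3.19% with siEGFR. The medians of all loci were −0.06, −0.04 and 0.01. The counts and medians of this list and of the lists after it are to be read beside these values. MMP15, a further membrane-type enzyme, fell with almonertinib to 24.6 FPKM and with EGF to 16.2 FPKM, against 32.2 FPKM in the control (log2 changes −0.38 and −0.95, adjusted p = 0.00598 and 1.2e-06). MMP19 rose with almonertinib by 0.28 (adjusted p = 0.00387) and fell by 0.46 with EGF (adjusted p = 2.33e-05). MMP17, which is tethered by a lipid anchor, rose with almonertinib by 0.37 (adjusted p = 0.0239), though these libraries overlapped those of the control. It rose with EGF as well, by 0.39 (adjusted p = 0.00869). MMP28 fell with EGF by 0.47 (adjusted p = 0.000263). In siEGFR cells MMP28 averaged 5.24 FPKM, against 7.95 FPKM in siNC cells, and the collagenase MMP13 averaged 4.01 FPKM, against 6.44 FPKM (log2 changes −0.52 and −0.57, adjusted p = 0.00159 and 0.0153).

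Of 7 listed inhibitors 5 were tested, which adds TIMP4 and the membrane-anchored inhibitor RECK to the 3 described. In this list 0 rose and 2 fell with almonertinib, 3 rose and 1 fell with EGF, and 1 rose and 2 fell with siEGFR, with medians of −0.06, 0.37 and −0.32. TIMP4 averaged 11.4 ± 1.48 FPKM with almonertinib and 34.1 ± 1.84 FPKM with EGF, against 18.4 ± 2.52 FPKM in the control (SD, n = 3 each). It fell by 0.65 with almonertinib (adjusted p = 0.000475) and rose by 0.87 with EGF (adjusted p = 9.33e-06). TIMP3 was at most 0.330 FPKM.

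In the plasminogen list 17 of 21 genes were tested, and PLG, the gene of plasminogen itself, was at most 0.00775 FPKM. With almonertinib 4 rose and 4 fell, with EGF 12 rose and 5 fell, and with siEGFR 2 rose and 2 fell, with medians of −0.04, 0.45 and 0.02. These counts include PLAU, PLAUR and PLAT. Of the other 14 genes, 4 rose and 1 fell with almonertinib, 9 rose and 5 fell with EGF, and 2 rose and 1 fell with siEGFR. SERPINB2, an inhibitor of PLAU, averaged 7.66 ± 0.103 FPKM in siEGFR cells and 14.4 ± 0.595 FPKM in siNC cells (SD, n = 3 each), a fall of 0.83 on the log2 scale (adjusted p = 1.53e-05). It rose with EGF by 1.30 (adjusted p = 1.19e-08). SERPINA5 and SERPINF2, an inhibitor of activated protein C and urokinase and the chief plasmin inhibitor of plasma, rose with almonertinib by 0.78 and 0.53 (adjusted p = 7.17e-05 and 0.00194). ENO1, a glycolytic enzyme that also binds plasminogen at the cell surface, rose with EGF by 0.95 (adjusted p = 1.3e-07). VTN, vitronectin, a matrix protein that binds PLAUR, rose with siEGFR by 0.23 (adjusted p = 0.0447). In siNC cells SERPINA5 was at 0.570 FPKM, against 6.16 FPKM in the control.

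**Figure D4:**
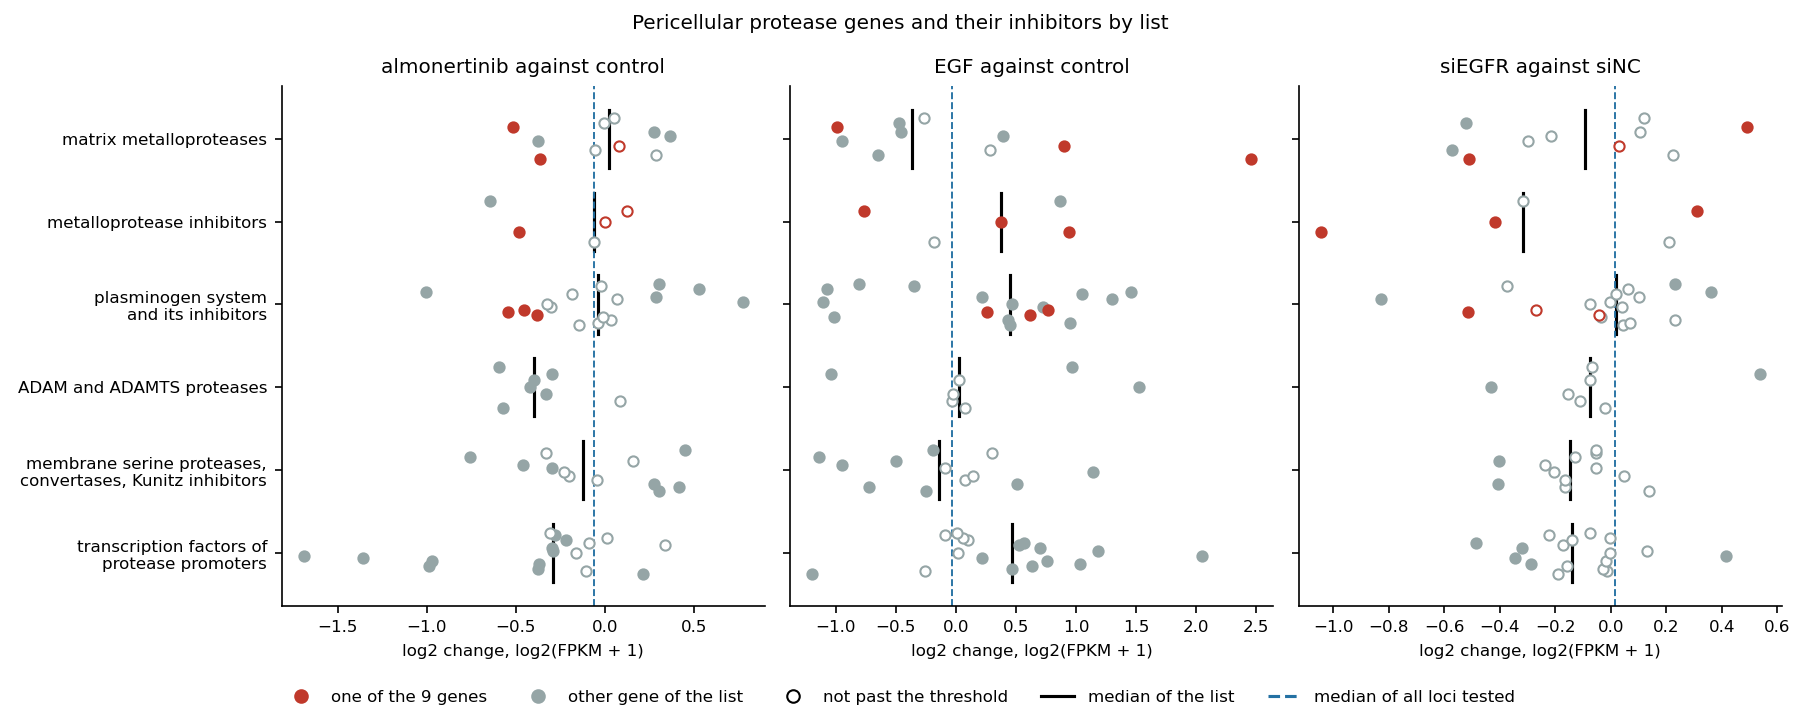
Log2 change (horizontal axis, log2(FPKM + 1) scale) of every tested gene in 6 lists of pericellular protease genes and their regulators, in 3 comparisons; red points belong to the 9 genes, filled points passed the threshold of 0.05 on the adjusted p, the black bar is the median of a list and the dashed line that of all loci tested. The axes differ between panels. The transcription factor list has medians of −0.29 with almonertinib, 0.47 with EGF and −0.14 with siEGFR.

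The related ADAM and ADAMTS proteases, which shed membrane proteins or cut matrix proteoglycans, had 7 of 16 genes tested. With almonertinib 0 rose and 6 fell, with EGF 2 rose and 1 fell, and with siEGFR 1 rose and 1 fell (medians −0.40, 0.03 and −0.07). The shares of all loci were 12.1% up and 18.0% down with almonertinib, 22.0% and 27.3% with EGF, and 2.27% and 3.19% with siEGFR. ADAM8 averaged 21.4 ± 1.68 FPKM with EGF, against 6.81 ± 0.852 FPKM in the control (SD, n = 3 each, log2 change 1.52 ± 0.10 SE, adjusted p = 9.74e-08). ADAM10, a widely used sheddase, fell with almonertinib by 0.57 (adjusted p = 0.00819), and ADAMTS9 fell with almonertinib by 0.60 and rose with EGF by 0.97 (adjusted p = 7.55e-05 and 1.68e-07). ADAMTS15, the locus whose levels ran most closely with MMP24, fell with EGF by 1.04 (adjusted p = 2.81e-07) and rose with siEGFR by 0.54 (adjusted p = 0.00135). With almonertinib ADAMTS15 fell, by 0.30 (adjusted p = 0.015).

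Of 18 membrane serine proteases, convertases, lysosomal cathepsins and Kunitz inhibitors 12 were tested. With almonertinib 4 rose and 3 fell, with EGF 2 rose and 6 fell, and with siEGFR 0 rose and 2 fell (medians −0.12, −0.14 and −0.15). SPINT1, the inhibitor of matriptase, fell with almonertinib by 0.46 and with EGF by 0.95 (adjusted p = 0.000468 and 1.88e-07). ST14, the gene of matriptase itself, also fell, by 0.76 with almonertinib and by 1.14 with EGF (adjusted p = 0.0016 and 1.7e-05). SPINT2, a relative of SPINT1, fell with siEGFR by 0.40 and with EGF by 0.49 (adjusted p = 0.00514 and 9.23e-05). Its change of 0.16 with almonertinib did not pass (adjusted p = 0.114). PRSS22, a trypsin-like serine protease, rose with EGF by 1.14 (adjusted p = 1.1e-06). TMPRSS2, a membrane serine protease, was at 1.26 to 1.28 FPKM with almonertinib and at most 0.762 FPKM in any other library. It passed the filter only through the almonertinib libraries, the group where it was highest. Its place among the 4 rises with almonertinib is therefore a description and not a test. Among lysosomal cathepsins, CTSB rose with almonertinib by 0.31 (adjusted p = 0.00105), CTSD fell with EGF by 0.73 (adjusted p = 1.6e-05) and CTSL fell with siEGFR by 0.40 (adjusted p = 0.00509). CTSL rose with almonertinib by 0.28 and with EGF by 0.51 (adjusted p = 0.013 and 7.09e-05).

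Of 18 transcription factors known to act at the MMP1, PLAU or PLAUR promoters 17 were tested. With almonertinib 1 rose and 10 fell, with EGF 10 rose and 1 fell, and with siEGFR 1 rose and 4 fell (medians −0.29, 0.47 and −0.14). The AP-1 subunit FOSL1 averaged 1.33 ± 0.322 FPKM with almonertinib and 30.1 ± 2.13 FPKM with EGF, against 6.54 ± 0.961 FPKM in the control (SD, n = 3 each). It fell with almonertinib by 1.69 (adjusted p = 5.26e-07), as did FOS by 1.36 (adjusted p = 1.88e-07) and the ETS factor ETV5 by 0.97 (adjusted p = 4.07e-06). JUN and ETV4 rose with EGF by 1.19 and 1.03 (adjusted p = 8.72e-10 and 3.32e-09), and ELF3, an epithelial ETS factor, fell with EGF by 1.20 (adjusted p = 3.37e-09). In siEGFR cells KLF4, JUNB and ETV4 fell by 0.48, 0.32 and 0.29 (adjusted p = 0.000238, 0.00649 and 0.00344). FOSL1 averaged 79.7 ± 2.40 FPKM in siEGFR cells and 59.6 ± 2.21 FPKM in siNC cells (SD, n = 3 each).

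As a description over the 15 libraries, which share their 5 groups, the levels of the 9 genes were compared with each other on the log2(FPKM + 1) scale. PLAT ran with TIMP1 (Pearson r = 0.967) and with MMP14 (0.965). PLAU, PLAUR and TFPI2 ran together (0.899 to 0.928), and TIMP2 ran opposite to all 3 (−0.970 with PLAUR, −0.951 with PLAU, −0.935 with TFPI2). MMP1 stood apart from both sets, with its strongest relation to MMP24 (−0.677).

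The loci most like each gene over the 15 libraries were sought among about 3500 loci whose group means differed by at least 1 on the log2 scale. MMP1 was nearest to KIF21B (r = 0.990), NOG (0.983) and MANCR (0.982), of which NOG averaged 19.3 FPKM with EGF, against 6.80 FPKM in the control. MMP14 was nearest to ACSS2 (0.986), SIRPB1 (0.978) and ULBP2 (0.975), and MMP24 to ADAMTS15 (0.925), IGSF9B (0.888) and FAT4 (0.874). TIMP1 was near to SERPINA1 (0.987) and SMIM3 (0.984), and TIMP2 to RTL5 (0.991), BTN3A1 (0.990) and SLC25A18 (0.989). For TFPI2 they were SERPINB5 (0.986), ME2 (0.983) and IFI44 (0.982).

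The plasminogen activator genes had the closest matches. PLAU was nearest to PTGS2 (0.992), LPCAT1 (0.991) and SPTB (0.989). LPCAT1, an enzyme of phospholipid remodelling, averaged 131 FPKM in siEGFR cells and 145 FPKM in siNC cells, and 38.4 FPKM in control cells. PLAUR was nearest to TLE3 (0.996), LETM1 (0.996) and IRAK1 (0.993), and PLAT to ANKH (0.994), SMIM3 (0.993) and SLC6A9 (0.987). With so few groups, many loci share a pattern over them, and nothing about shared control follows from these values.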

How the data were processed

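Per the submitters' processing notes, HISAT2, featureCounts, DESeq2 and the genome build hg19 were named, with no versions or roles. The deposited table holds FPKM, which the authors made per gene from mRNA libraries enriched with oligo(dT), per the labels' protocols; strand handling is not given in the sources used here. FPKM are not counts, so 1 limma fit (version 3.58.1, R 4.3.3, trend and robust moderation, two-sided tests, 10 residual degrees of freedom) used log2(FPKM + 1) of the 14999 loci that reached 1 FPKM in 3 or more of 15 libraries, with 1 coefficient per group. Adjusted p-values are Benjamini-Hochberg over those loci. Library depth came from the FPKM steps: 100.0% of positive values were whole reads within 0.01 reads. Symbols for 60463 of 61248 loci came from a gene name table. The steps were tested on simulated data. Replicates within each group differed beyond the noise of read sampling, so none were merged as copies of each other, and each of the 15 libraries entered the fit separately. That excess does not show whether they were separate cultures.

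The 9 genes and the gene lists were chosen with earlier results of these data known. Beside the 9 genes, the text names up to 3 tested genes with the smallest p per list and comparison among those past the threshold, and the 3 loci most like each gene; RECK, the genes below the filter, the values of a named gene in a comparison that did not select it, and the cell type markers were named in addition. Not every locus picked this way is reported here; all were kept in the fits and counts. Promoter windows are from RefSeq on GRCh38.p14, a build other than that of the files, so no other coordinates are given. Alternatives were another pseudocount (0.1), a stricter filter (5 FPKM) or none, TPM or median-ratio scaling, limma-voom on recovered reads, no trend, a fit of the compared groups alone, the replicate number as a block, leaving out each library, and leaving out control 1 with almonertinib 3.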

Additional observations from a re-analysis of the deposited data

How the results depend on the processing

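Of 1116 single-gene results under alternatives, 1086 kept their direction and their side of the threshold (or never had a call), 22 lost and 8 gained a call, and 0 reversed. Of the 9 genes, 6 passed the threshold under almonertinib, and 3 (MMP24, PLAU and PLAUR) when only the almonertinib and control libraries were fitted. Leaving out 1 library gave 5 to 6 genes for almonertinib, 9 to 9 for EGF, siNC and almonertinib against EGF, 5 to 5 for siEGFR, 2 to 4 for almonertinib minus siEGFR and 9 to 9 for EGF minus siEGFR. Counts over all loci moved more. For almonertinib they were 4517, and 857 in the 6-library fit, with 2853 to 5611 when 1 library was left out (2853 without almonertinib 2). For siEGFR they were 819, and 3080 in the 6-library fit, 1640 without control 1 and almonertinib 3, 544 with the 5 FPKM filter and 441 to 525 without 1 library. With that filter, which tests 8204 loci, they were 4627 for EGF (7396 before), 5974 for siNC (9899), 5906 for almonertinib against EGF (9393) and 3733 for EGF minus siEGFR (5752). For almonertinib minus siEGFR they were 2049, and 1338 to 3029 without 1 library (1338 without siEGFR 3). The other ranges without 1 library were 6264 to 7564 for EGF, 8968 to 10150 for siNC, 8395 to 9731 for almonertinib against EGF and 4964 to 6122 for EGF minus siEGFR. The cause of these shifts was not tested. The fit of all 15 libraries uses 1 estimate of spread per locus for all groups, and the spread between replicates differed by group. As chi-square per degree of freedom between 2 replicates, it was 1.59 to 4.75 within siEGFR and siNC. Within control, almonertinib and EGF it was 7.99 to 48.7. Scaling moved the share of higher calls under almonertinib: 40.2% as reported, 22.0% with TPM and 53.5% with median-ratio scaling, and for almonertinib minus siEGFR 43.5%, 24.3% and 57.8%. The replicate numbers were not used as pairs in the main fit, since no comparison had all 3 same-number correlations above 0.1. They were 0.033, −0.007 and 0.013 for siEGFR and siNC, and −0.084, 0.216 and −0.144 for siNC and control. For EGF and control they were 0.55, 0.597 and −0.124, and for almonertinib and EGF 0.014, 0.528 and 0.438. Almonertinib and control gave −0.162, 0.539 and −0.169. By comparison, 2 to 4 of 6 libraries correlated best with their own number. These values do not settle whether some libraries were paired. With the replicate block 5614 loci passed for almonertinib, 8040 for EGF, 1036 for siEGFR, 10352 for siNC, 9931 for almonertinib against EGF, 2982 for almonertinib minus siEGFR and 6445 for EGF minus siEGFR; PLAUR under siEGFR (adjusted p = 0.0127) and TFPI2 in almonertinib minus siEGFR (0.0213) then passed. Limma-voom on recovered reads called 4638, 7506 and 858 loci for almonertinib, EGF and siEGFR. Depth limits MMP1 most, with 32 reads in its lowest library.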
